A study of Mus musculus with 96 samples.

Results

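Oxidative phosphorylation subunits encoded in the nucleus were followed as 85 genes in the livers of mouse mothers, of fetuses and of male offspring on 2 diets. The genes were taken by name: every symbol that begins as a subunit of complex I to V does (Ndufa, Ndufb, Ndufc, Ndufs, Ndufv, Sdha to Sdhd, Uqcr, Cox4 to Cox8 or Atp5) was a member, and 7 Ndufaf assembly factors were left out. They are 85 of the 24066 genes whose symbol stands on 1 entry of the tables, with 38 in complex I, 4 in complex II, 8 in complex III, 18 in complex IV and 17 in complex V. The name is not the same as the biochemistry. Ndufa4 was counted in complex I although its protein is known as part of complex IV, Atp5s, Atp5sl and Cox7a2l are not core subunits, and the complex III subunit Cyc1 is not matched by its name. Subunits encoded in mitochondrial DNA were not analysed here.

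Complexes I to IV pass electrons from NADH and succinate to oxygen, complexes I, III and IV pump protons across the inner mitochondrial membrane as they do so, and complex V uses the proton gradient to make ATP. In hepatocytes this ATP pays for gluconeogenesis, urea synthesis and lipid handling, and the same chain takes the electrons released when fatty acids are oxidised. Several complex IV subunits exist as isoform pairs, in which a liver form has a counterpart known from heart and muscle, hypoxia or testis.

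Poly(A) RNA of livers was sequenced in 96 stranded libraries of C57BL/6J mice, 3 for each of 32 groups, which are 8 arms of 12 libraries sampled at zeitgeber time (ZT, hours after lights on) 0, 6, 12 and 18. Shifted mothers lived under 12 h of light and 12 h of dark whose phase was moved forward by 8 h at intervals of 5 days. Control mothers kept the 12 h and 12 h cycle. The arms are fetuses of shifted and of control mothers, shifted and control mothers themselves, and offspring of shifted or control mothers that ate a high-fat or a low-fat diet for 12 weeks from 4 weeks of age. Gestational day, sex and pooling of the fetuses, and whether the 3 libraries of a group came from separate animals, are not stated by the sources, so p-values measure the spread between libraries, which may be technical.

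Values are FPKM, fragments counted on a transcript relative to its length and to all mapped fragments, deposited in 1 table per arm. They summed to 619897 to 804453 per fetal library, 535912 to 612061 per library of mothers and 497208 to 742626 per offspring library, and the number of fragments behind them is unknown. All levels below are FPKM scaled within a stage by median-of-ratios factors. Fetuses tested against mothers were instead scaled together. The marker sums here and the levels by complex and isoform below keep the scale of their stage, so their sizes do not compare directly across stages. Of the hepatocyte markers, 8 of 8 in the tables averaged at least 1 FPKM in every arm. Hepatoblast markers (Afp, Dlk1, Igf2, H19, Gpc3) summed to a median of 20860 FPKM in fetuses of shifted mothers and 22060 in fetuses of control mothers, and to 1.04 FPKM in shifted mothers and 1.1 FPKM in control mothers. In 5 offspring libraries the median correlation to their arm was under 0.95, and the lowest, high-fat offspring of control mothers at ZT0 replicate 1, had 0.886. That library listed Ndufs5 at 0.0218 FPKM, against 175 FPKM in each of the other two libraries of its group, and Cox7a1 and Ndufa4l2 at 0. Results that move without such libraries are given both ways.

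Complex II had the narrowest range of levels. Its highest member stood 1.37-fold above its lowest in control mothers and 1.90-fold in low-fat offspring of control mothers, against 5.25-fold and 8.58-fold in complex III and more in complexes I, IV and V. In low-fat offspring of control mothers the highest of each complex were Ndufa4 at 1054 FPKM, Sdhb at 239, Uqcrq at 1047, Cox7c at 1028 and Atp5k at 1030 FPKM on average. The same genes led in control mothers, with 539 FPKM for Ndufa4, 129 for Sdhb, 513 for Uqcrq, 420 for Cox7c and 585 for Atp5k. In fetuses of control mothers Sdhd (232 FPKM) led complex II and Uqcrh (767 FPKM), the hinge protein of complex III, led complex III. Medians of the member means in low-fat offspring of control mothers were 173 FPKM in complex I, 158 in complex II, 586 in complex III, 240 in complex IV and 357 in complex V. Complex III therefore held the highest median level, and its lowest member, the core protein Uqcrc2, averaged 122 FPKM. FPKM is scaled to length, so these levels can be set beside each other, but most members are short and many have processed pseudogenes, and reads could be split between copies in a way that the sources used here do not describe.

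Isoform pairs were divided sharply. Cox6b2, known as the testis form of the complex IV subunit COX6B, averaged 61.5 ± 13.0 FPKM in fetuses of shifted mothers and 56.0 ± 9.91 FPKM in fetuses of control mothers (SD, n = 12 each). In mothers and offspring it averaged between 0.363 and 0.717 FPKM in all 6 arms. Its counterpart Cox6b1 averaged between 396 FPKM in control mothers and 788 FPKM in high-fat offspring of control mothers, with each stage scaled alone. With mothers and fetuses scaled together, Cox6b1 averaged 523 FPKM in control mothers and 438.8 FPKM in fetuses of shifted mothers. Cox6b1 was thus the higher form in every arm, and Cox6b2 was above 1 FPKM on average in fetal livers only. Ndufa4l2, a paralog of Ndufa4 known to be induced in hypoxia, averaged 65.2 ± 26.1 FPKM in fetuses of shifted mothers and 66.0 ± 30.2 FPKM in fetuses of control mothers, and 1.12 to 1.84 FPKM in the 6 other arms. Cox7a1, the heart and muscle form of COX7A, averaged 12.1 ± 5.01 and 16.5 ± 8.33 FPKM in fetuses of shifted and control mothers, 1.86 ± 0.863 and 2.43 ± 1.11 FPKM in shifted and control mothers, and 5.61 to 12.6 FPKM in the offspring arms. With mothers and fetuses scaled together, Cox7a1 averaged 9.13 and 12.5 FPKM in fetuses of shifted and control mothers. Shifted and control mothers had 2.45 and 3.21 FPKM on that scale, to which offspring were not brought.

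Of the other complex IV isoforms, Cox4i2, Cox6a2, Cox7b2, Cox8b and Cox8c were at or near 0. Cox4i2, the lung and hypoxia form of COX4, averaged 0.608 and 0.667 FPKM in fetuses of shifted and control mothers and at most 0.121 FPKM elsewhere, against 384 to 780 FPKM for Cox4i1. Cox6a2 reached 0.228 FPKM and Cox8b 0.432 FPKM in their highest arms, and Cox7b2 and Cox8c were listed at 0 in 7 and 6 of 8 arms and under 0.02 FPKM in the rest. Skeletal and heart muscle markers summed to 0.910 to 5.43 FPKM over the fetal libraries of shifted mothers and 1.01 to 3.56 over those of control mothers. Of the c-ring genes of complex V, Atp5g3 was highest in every arm, with 426 FPKM in control mothers and 783 FPKM in high-fat offspring of control mothers, against 178 and 303 FPKM for Atp5g1 and 173 and 248 FPKM for Atp5g2.

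**Figure D1:**
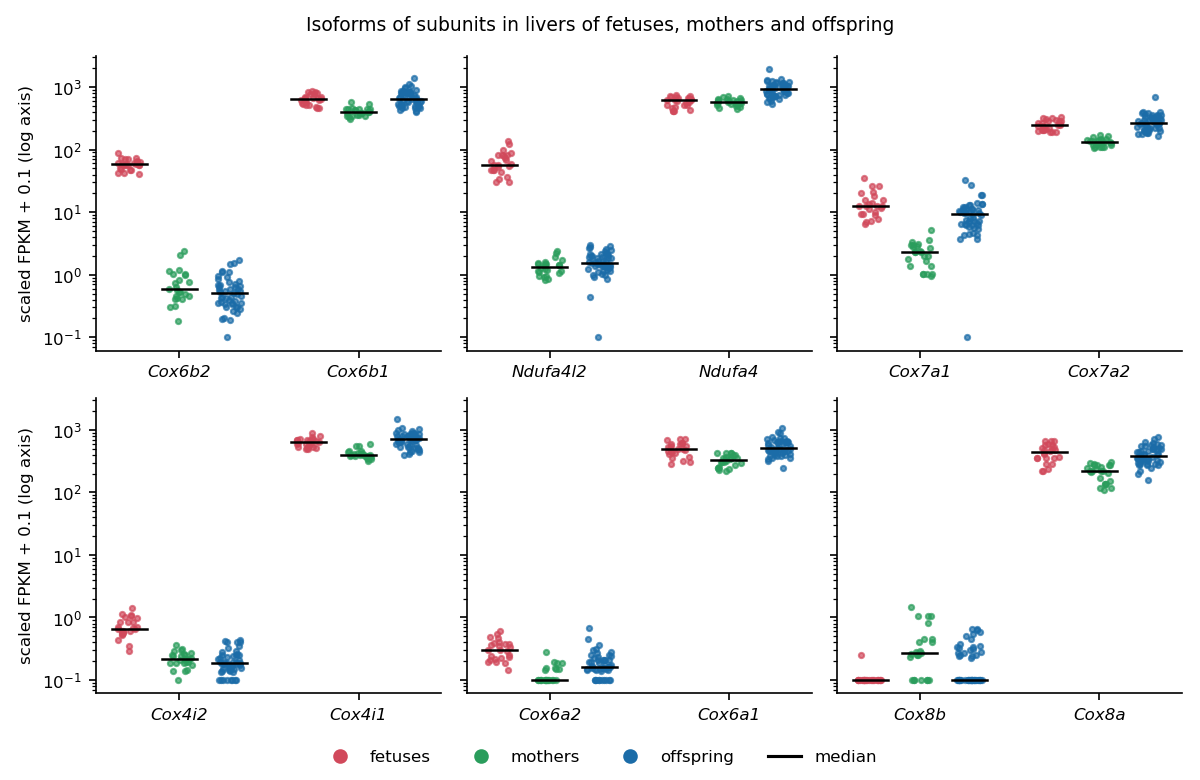
Scaled FPKM plus 0.1 on a log axis in each fetal (left), maternal (middle) and offspring (right) library for 6 pairs of isoforms; black lines are medians over the libraries of a stage. Each stage was scaled alone. Cox6b2 and Ndufa4l2 lie near 50 FPKM in fetuses and near 1 FPKM or less elsewhere, while Cox6b1 and Ndufa4 are high in all 3 stages.

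The upstream regions of Cox6b2 and Cox6b1 are shown because Cox6b2 was above 1 FPKM on average in fetuses only, while Cox6b1 was high in all 3 stages. Each run holds the 250 bases before the annotated start, 5′ to 3′ on the strand of the gene, from RefSeq (GRCm38.p6), with matches to 5 motifs in capitals. Cox6b2 is at chr7:4753095-4753344 and Cox6b1 at chr7:30626115-30626364, both on the minus strand.
Cox6b2: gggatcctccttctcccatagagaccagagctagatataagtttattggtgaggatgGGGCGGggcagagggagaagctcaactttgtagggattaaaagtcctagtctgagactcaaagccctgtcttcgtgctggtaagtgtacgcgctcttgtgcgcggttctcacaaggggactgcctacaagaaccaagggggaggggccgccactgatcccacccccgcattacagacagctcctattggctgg
Cox6b1: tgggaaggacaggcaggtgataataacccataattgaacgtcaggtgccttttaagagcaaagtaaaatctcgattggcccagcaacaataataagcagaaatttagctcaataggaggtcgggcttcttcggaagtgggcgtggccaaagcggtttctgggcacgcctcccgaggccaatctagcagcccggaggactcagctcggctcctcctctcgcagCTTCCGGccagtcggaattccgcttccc
In Cox6b2 the capitals mark 1 SP1 match (GGGCGG), and in Cox6b1 1 ETS match (CCGGAAG), the motif that GABPA binds, 28 to 22 bases before the start.

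Of the 85 members, 70 were matched to a promoter of 300 bases (250 before and 50 after the start), and 27025 promoters were listed in all. The NRF1 motif, which is GCGC, any base and TGCGC, was found on either strand in 16 members, 22.9% against 4.78% of all promoters. The ETS motif was found in 15 members (21.4% against 9.12%), the YY1 motif AANATGGC in 16 (22.9% against 6.23%), the ERR motif AAGGTCA in 8 (11.4% against 4.66%) and the SP1 motif in 29 (41.4% against 35.9%). Matches of different motifs overlapped in 1 member promoter. These are matches of letters, not measured binding sites.

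Fetal livers held less of most members than the livers of mothers once both were scaled to the same median gene. In the shifted arms 3 members were higher and 65 lower in fetuses than in mothers, of 81 tested, with a median log2 difference of -0.53. In the control arms 9 were higher and 44 lower, with a median of -0.25. Of all genes 85.4% and 84.9% passed in these comparisons, so a call is common here, and calls split evenly over all genes (42.3% higher and 43.1% lower in the shifted arms, 41.8% and 43% in the control arms). The 2 comparisons use separate libraries. In the shifted arms 35 members were lower and 3 higher with no overlap between the groups, as were 24.1% and 25.6% of all genes. In the control arms 18 were lower and 2 higher with no overlap, as were 24.5% and 26.2% of all genes. Cox4i2, Cox6a2, Cox7b2 and Cox8c were too low to be tested.

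Cox6b2, Ndufa4l2 and Cox7a1 were the members higher in fetuses in both pairs of arms. In the control arms the lowest, median and highest fetal values of Cox6b2 were 31.1, 43.1 and 54.1 FPKM, against 0.292, 0.695 and 3.02 FPKM in mothers. The groups did not overlap, and the fold was 23.2 on the log2(FPKM + 1) scale (adjusted p = 3.85e-25), with 26.9 in the shifted arms. Ndufa4l2 had 22.5, 43.1 and 105.5 FPKM in fetuses of control mothers, against 1.0, 1.39 and 2.42 FPKM in control mothers, which did not overlap either (18.8-fold, adjusted p = 2.41e-22, and 17.0-fold in the shifted arms). Cox7a1 was 3.09-fold higher in fetuses of control mothers and 2.91-fold higher in fetuses of shifted mothers. It averaged 12.5 FPKM in fetuses of control mothers and 3.21 FPKM in control mothers, whose ranges overlapped, while those of the shifted arms did not.

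Members of complex II and catalytic members of complex I were among those lower in fetuses with the smallest p. Sdhb, the iron-sulfur subunit of succinate dehydrogenase, had lowest, median and highest values of 46.0, 58.1 and 73.8 FPKM in fetuses of shifted mothers, against 155.4, 193.5 and 206.5 FPKM in shifted mothers. The ranges lay far apart, with a log2 difference of -1.66 ± 0.10 (SE, adjusted p = 3.31e-18), and it was -1.33 in the control arms. Sdha, the flavoprotein subunit, averaged 64.4 ± 6.28 FPKM in fetuses of control mothers and 153 ± 14.7 FPKM in control mothers (log2 difference -1.24). Ndufv1, which carries the FMN where NADH is oxidised, was at -0.97 in the shifted arms and -1.05 in the control arms. Ndufs8, an iron-sulfur subunit of the arm that hands electrons to ubiquinone, was at -1.33 in the shifted arms and -1.04 in the control arms. Atp5sl (now named Dmac2, an assembly factor of complex I), Ndufa1, Ndufa10 and Ndufs6 also fell, with log2 differences of -1.70, -1.45, -1.10 and -1.01 in the shifted arms.

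Small increases in fetuses of the control arms were seen for Atp5g2, Uqcrh, Atp5s, Uqcr10, Cox7a2 and Cox8a, each 1.15- to 1.25-fold. After trends with GC content and transcript length were removed from each library, Atp5g2 and Uqcr10 turned to -0.20 and -0.18 on the log2 scale, and Uqcrh (adjusted p = 0.621) and Cox7a2 (adjusted p = 0.608) lost their calls, while Atp5s passed. Cox7a2 was also lost in 6 of 24 fits that left out 1 library. The increases of these 4 therefore depend on that setting, under which Cox8a was not followed singly. By complex, the members lower in fetuses of shifted mothers numbered 35 of 38 in complex I, 3 of 4 in complex II, 6 of 8 in complex III, 7 of 14 in complex IV and 14 of 17 in complex V. The split depends on scale. In the values as deposited the median of all genes was 0.64 higher on the log2 scale in fetuses of shifted mothers than in shifted mothers and 0.55 higher in the control arms. There 47 members were higher and 12 lower in the shifted arms, and 59 higher and 7 lower in the control arms, with members' medians of 0.31 and 0.47, below those of all genes.

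Cell type markers differed strongly between the stages, and the lists around the chain did not all differ in the same sense. Of 50 assembly factors 38 were lower in fetuses of shifted mothers and 6 higher, and of 19 genes of the TCA cycle and pyruvate oxidation 14 were lower and 2 higher. Carriers of ADP, phosphate and the outer membrane were divided, with 5 lower and 4 higher of 10, as were regulators of mitochondrial biogenesis, with 10 lower and 6 higher of 22. Cytosolic ribosomal protein genes went the other way, with 78 of 81 higher and 1 lower. Erythroid markers were higher in fetuses for 9 of 9 genes, with summed medians on the shared scale of 1513 FPKM in fetuses of shifted mothers and 38.4 FPKM in shifted mothers, and of 1320 FPKM in fetuses of control mothers and 39.2 FPKM in control mothers. Hepatocyte markers were lower for 8 of 8. Fewer cells of a type and less RNA per cell cannot be told apart in bulk livers, and the part of blood cells in the fetal levels was not tested.

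Of 80 members, 7 were lower and none higher in fetuses of shifted mothers than in fetuses of control mothers, and 3.78% of all genes passed (2.31% higher and 1.47% lower). The 7 were 4 subunits of complex IV (Cox8a, Cox6a1, Cox5b, Cox5a), 2 of complex I (Ndufab1, Ndufb2) and 1 of complex V (Atp5d). The median change of the members was -0.15 on the log2 scale, against -0.01 for all genes, and 76 of 80 were below 0. At an unadjusted p under 0.05 there were 24 of the 80 members, and 2552 of 11985 genes in all. The count ran from 4 (without fetuses of control mothers at ZT6 replicate 2) to 10 (without ZT0 replicate 3 of that arm) with 1 library left out. No member had all 12 shifted libraries below the 12 control ones, as had 0.0417% of all genes.

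Ndufab1, the mitochondrial acyl carrier protein that also sits in complex I, had lowest, median and highest values of 62.3, 82.3 and 108.5 FPKM in fetuses of shifted mothers, against 86.0, 122 and 162 FPKM in fetuses of control mothers. The ranges overlapped, but all 12 libraries of the shifted arm lay below the control mean of their time, with a log2 change of -0.57 ± 0.10 (SE, adjusted p = 0.004575). Such counts of libraries were made for members only, so no share over all genes stands beside them here or below. Cox8a, the liver form of the smallest complex IV subunit, had 218, 355 and 473 FPKM in fetuses of shifted mothers, against 366, 548 and 673 FPKM in fetuses of control mothers, a log2 change of -0.71 ± 0.12 (adjusted p = 0.004752). Cox6a1, which is a regulatory complex IV subunit, averaged 415 ± 85.3 FPKM in fetuses of shifted mothers and 585 ± 96.8 FPKM in fetuses of control mothers (log2 change -0.50, adjusted p = 0.01482). Cox5b, the zinc-binding subunit of complex IV, averaged 299 ± 67.5 FPKM in fetuses of shifted mothers and 412 ± 68.8 FPKM in fetuses of control mothers (-0.48, adjusted p = 0.01915). For both, shifted libraries filled the low end of an overlapping range.

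Atp5d, the delta subunit of the rotor stalk of complex V, averaged 146 ± 20.9 FPKM in fetuses of shifted mothers and 190 ± 29.2 FPKM in fetuses of control mothers (-0.38, adjusted p = 0.02245). Ndufb2, an accessory subunit of the membrane arm, averaged 86.6 ± 15.4 FPKM in fetuses of shifted mothers and 113 ± 17.2 FPKM in fetuses of control mothers (-0.39, adjusted p = 0.02991). Cox5a, a partner of Cox4i1 in the assembly of complex IV, averaged 137 ± 31.2 FPKM in fetuses of shifted mothers and 197 ± 45.1 FPKM in fetuses of control mothers (-0.52, adjusted p = 0.04564). These 3 were the less stable calls. With trends of GC content and transcript length removed their adjusted p was 0.0904, 0.0904 and 0.0504, while Ndufab1, Cox8a, Cox6a1 and Cox5b passed, and Cox5a was lost in 15 of 24 fits that left out 1 library and Ndufb2 in 10.

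**Figure D2:**
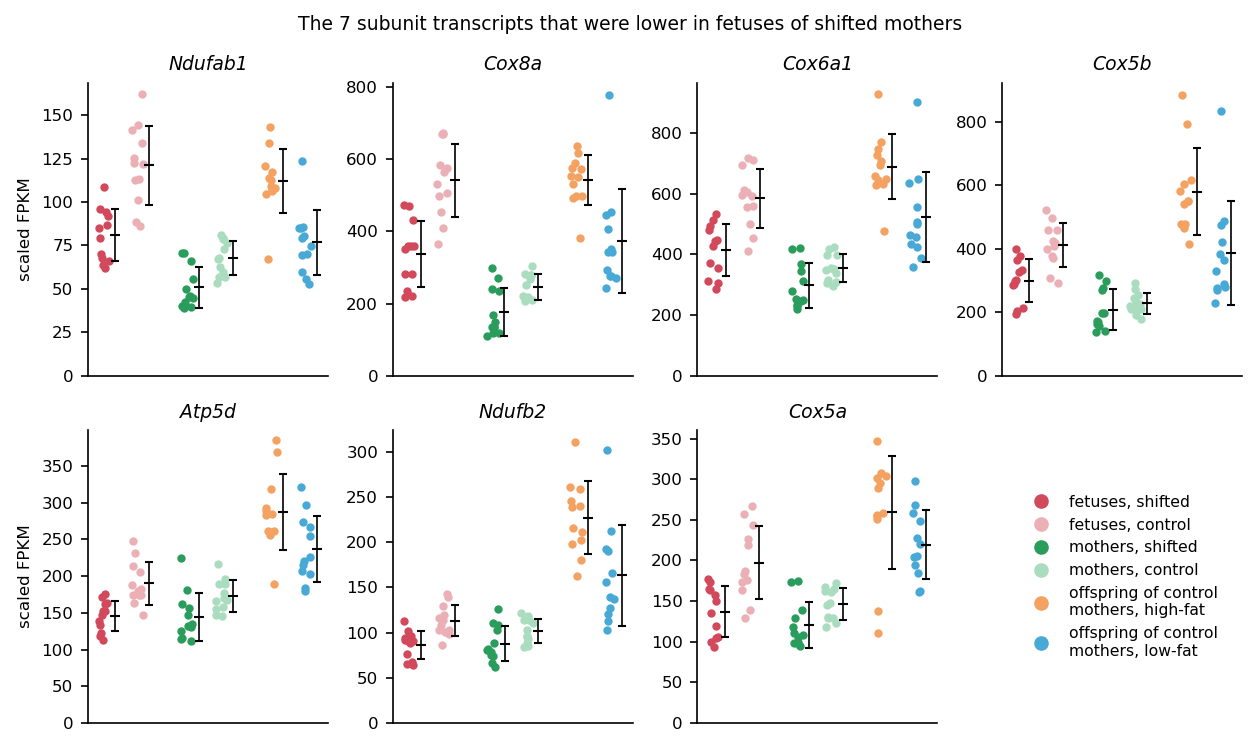
Scaled FPKM in each library for the 7 members lower in fetuses of shifted mothers, in fetuses, mothers and offspring of control mothers on the 2 diets; bars are mean ± SD over 12 libraries. Fetuses of shifted mothers lie lower than fetuses of control mothers in all 7 panels with overlap, and high-fat offspring of control mothers lie higher than their low-fat counterparts with overlap.

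Promoters of the 4 members whose calls held are shown to compare members that fell together, in the same form and from the same source as above. Ndufab1 is at chr7:122101849-122102098, Cox8a at chr19:7217617-7217866 and Cox6a1 at chr5:115348959-115349208, on the minus strand, and Cox5b at chr1:36691237-36691486 on the plus strand.
Ndufab1: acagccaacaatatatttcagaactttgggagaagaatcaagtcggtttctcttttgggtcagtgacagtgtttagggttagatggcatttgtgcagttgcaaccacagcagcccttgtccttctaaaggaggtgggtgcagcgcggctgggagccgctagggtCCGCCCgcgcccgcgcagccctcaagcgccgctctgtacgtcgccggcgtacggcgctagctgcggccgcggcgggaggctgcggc
Cox8a: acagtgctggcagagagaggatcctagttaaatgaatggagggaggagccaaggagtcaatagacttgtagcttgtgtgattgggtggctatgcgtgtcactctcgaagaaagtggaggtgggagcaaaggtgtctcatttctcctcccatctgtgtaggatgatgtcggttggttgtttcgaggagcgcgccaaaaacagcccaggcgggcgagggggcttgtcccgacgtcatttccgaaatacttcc
Cox6a1: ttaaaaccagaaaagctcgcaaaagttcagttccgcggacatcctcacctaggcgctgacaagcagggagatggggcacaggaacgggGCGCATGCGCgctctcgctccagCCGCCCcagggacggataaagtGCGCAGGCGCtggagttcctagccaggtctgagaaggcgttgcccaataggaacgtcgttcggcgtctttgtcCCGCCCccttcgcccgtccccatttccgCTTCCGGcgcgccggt
Cox5b: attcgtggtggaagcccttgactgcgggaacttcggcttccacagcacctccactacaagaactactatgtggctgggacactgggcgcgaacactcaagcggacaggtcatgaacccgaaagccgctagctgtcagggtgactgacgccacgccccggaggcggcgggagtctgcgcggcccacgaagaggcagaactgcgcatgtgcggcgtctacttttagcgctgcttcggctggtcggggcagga
Cox6a1 held 2 NRF1 matches (162 to 153 and 117 to 108 bases before the start), 1 ETS match and 2 SP1 matches, and Ndufab1 1 SP1 match. No match was found in these 250 bases of Cox8a or Cox5b. In the promoters of 300 bases Cox8a held 2 ETS matches and Cox5b none of the 5 motifs, so the ETS motif was shared by Cox6a1 and Cox8a and no motif by all 4.

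Library trends differed between the fetal arms. The Spearman correlation of a gene's level, relative to the mean of its stage, with transcript length had a median of 0.09 (-0.27 to 0.51) in fetuses of shifted mothers and -0.155 (-0.42 to 0.25) in fetuses of control mothers, and that with GC content had medians of -0.105 and 0.13. The 7 members were 455 to 1416 nt long with 45.3% to 61.1% GC, against medians of 727 nt and 51.9% over the 85. Taken over genes, which do not vary independently, the change correlated with length at 0.31 and with GC at -0.38, and across the 80 members at 0.13 and -0.09. Their part in the result was not tested beyond the fit above. Members under 800 nt were lower for 4 of 43, as were 5.4% of all genes of that length, and those of 800 to 1500 nt for 3 of 22, as were 3.36% of all genes of that length. No cell type marker was called for hepatocytes (0 of 8), erythroid cells (0 of 9), macrophages (0 of 11) or lymphocytes (0 of 2), yet all 8 hepatocyte genes were below 0, with a median of -0.25, and 8 of 9 erythroid genes above 0, with a median of 0.24. Hepatocyte markers summed to 25880 to 68630 FPKM (median 45760) in fetuses of shifted mothers and 23880 to 79930 FPKM (median 54900) in fetuses of control mothers. Erythroid markers summed to 1374 to 3150 FPKM (median 2000.0) in fetuses of shifted mothers and 1317 to 2802 FPKM (median 1738) in fetuses of control mothers, and lymphocyte markers had medians of 13.94 and 19.99 FPKM in fetuses of shifted and control mothers. The part of these cells in the result was not tested. Of the further lists, mitochondrial ribosomal proteins had 5 of 77 lower, among them Mrps24 (-0.52, adjusted p = 0.005278), assembly factors 1 of 49 (Coa6, -0.41) and TCA cycle genes none of 19. Gabpa (0.27, adjusted p = 0.02952) and Yy1 (0.19, adjusted p = 0.04535), which encode factors that bind the ETS and YY1 motifs, were higher, 2 of 21 regulators of mitochondrial biogenesis.

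In mothers themselves 7 of 80 members were higher and 3 lower with the shift, and 7.91% of all genes passed (3.49% higher and 4.42% lower). Short genes were higher more often: 4 of 43 members under 800 nt were higher, where 12.3% of all genes of that length were, and 2 of 22 members of 800 to 1500 nt, where 6.14% were, so the members' count is near that of genes of their length. Those higher were Ndufa1, Ndufb3, Ndufb4, Ndufs4, Uqcrb, Atp5l and Atp5s, and those lower Ndufab1, Cox8a and Atp5b. Ndufa1, an essential accessory subunit of complex I, had lowest, median and highest values of 177, 204 and 301 FPKM in shifted mothers, against 152, 174 and 198 FPKM in control mothers (log2 change 0.27 ± 0.07, adjusted p = 0.02199). Ndufb4 reached 335 FPKM in shifted mothers against at most 160 in control mothers (0.40, adjusted p = 0.0318). The shifted libraries were higher in 11 and 10 of 12, and ranges overlapped for both, and for every member tested (0.029% of all genes were lower and 0.0386% higher with no overlap).

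Ndufab1 averaged 50.9 ± 12.0 FPKM in shifted mothers and 67.7 ± 9.84 FPKM in control mothers (-0.42 ± 0.11, adjusted p = 0.02317). Cox8a averaged 177 ± 66.6 FPKM in shifted mothers and 246 ± 34.9 FPKM in control mothers (-0.55, adjusted p = 0.04155). Atp5b, the catalytic beta subunit of complex V, averaged 363 ± 80.6 FPKM in shifted mothers and 472 ± 45.4 FPKM in control mothers (-0.41, adjusted p = 0.03709). Ndufab1 and Cox8a were called lower with the shift in mothers and in fetuses, 2 of the 3 members lower in mothers and 2 of the 7 lower in fetuses. No test of that overlap was made, and the matching overlap over all genes was not counted. Over all genes the change with the shift correlated with GC content at -0.21 in mothers and -0.38 in fetuses. In mothers the call of Cox8a was lost in 17 of 24 fits that left out 1 library (adjusted p up to 0.0723) and that of Atp5b in 16, while Ndufab1 passed in all 24. Of those higher, Ndufs4 was lost in 18, Uqcrb in 16, Atp5s in 15, Atp5l in 14, Ndufb4 in 9, Ndufb3 in 1 and Ndufa1 in 0 of the 24, and with both trends removed Ndufa1, Ndufb3, Ndufs4, Uqcrb and Atp5s lost their calls. The count in mothers was unstable too. It was 0 higher and 3 lower in the values as deposited, and between 2 (without shifted mothers at ZT12 replicate 3) and 24 (without shifted mothers at ZT18 replicate 1) with 1 library left out. The length trend of the libraries had medians of 0.03 in shifted mothers and 0.125 in control mothers, and the GC trend -0.105 and 0.045. The part of both trends in these changes was not tested beyond the fit with trends removed. Endothelial markers were lower for 6 of 7, with sums of 28.6 to 59.3 FPKM (median 35.5) in shifted mothers and 38.8 to 56.2 FPKM (median 53.0) in control mothers, and their part was not tested.

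By time of day, the members of shifted mothers stood highest against control mothers at ZT0. There the median change was 0.39 and 66 of 80 members were higher in shifted mothers, 51 of them with all 3 libraries above the 3 of control mothers, which held for 12.2% of all genes. At ZT12 the median was -0.11 and 60 members were lower, 15 without overlap (11.1% of all genes). The 85 members summed to 16310 ± 2025 FPKM in shifted mothers and 12570 ± 370 in control mothers at ZT0, and at ZT12 to 14060 ± 1776 in shifted mothers and 15300 ± 1232 in control mothers (SD, n = 3 each). Length trends of the ZT0 libraries were -0.01, 0.10 and -0.29 in shifted mothers and 0.26, 0.28 and 0.20 in control mothers. Their part in the ZT0 difference was not tested. The difference between the daily profiles was not called for any member (limma F test, smallest adjusted p = 0.1961 for Atp5s, 1.64% of all genes called). Cytosolic ribosomal protein genes were higher for 17 of 81 and mitochondrial ones for 9 of 77, and 7 of 49 assembly factors were higher and 1 lower.

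The change with the shift was set against itself in fetuses and mothers. The difference was called for none of 81 members, and 0.389% of all genes passed (0.146% lower). At an unadjusted p under 0.05 there were 47 of the 81 members, and 2406 of 12327 genes in all. The median log2 difference over the 81 was -0.29. Ndufa1 had the smallest adjusted p (0.05462, log2 difference -0.54), followed by Ndufb3 (-0.49) and Ndufs6 (-0.39), both at 0.06877. Under 3 alternatives 1 member passed, and with 1 library left out between 0 and 6 did, 6 without fetuses of shifted mothers at ZT0 replicate 3.

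In offspring on the high-fat diet most members were lower after the maternal shift. Of 80 members, 66 were lower and 3 higher in high-fat offspring of shifted mothers than in those of control mothers, 69 in all, where 48.2% of all genes passed (26.3% higher and 21.9% lower). The median change was -0.56 on the log2 scale, against 0.01 for all genes. Lower members numbered 34 of 38 in complex I, 1 of 4 in complex II, 7 of 8 in complex III, 10 of 13 in complex IV and 14 of 17 in complex V. Complex II was the exception, with a median change of 0.04. The members summed to 18170 ± 2889 FPKM in offspring of shifted mothers and 27190 ± 4302 FPKM in offspring of control mothers (SD, n = 12 each).

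**Figure D3:**
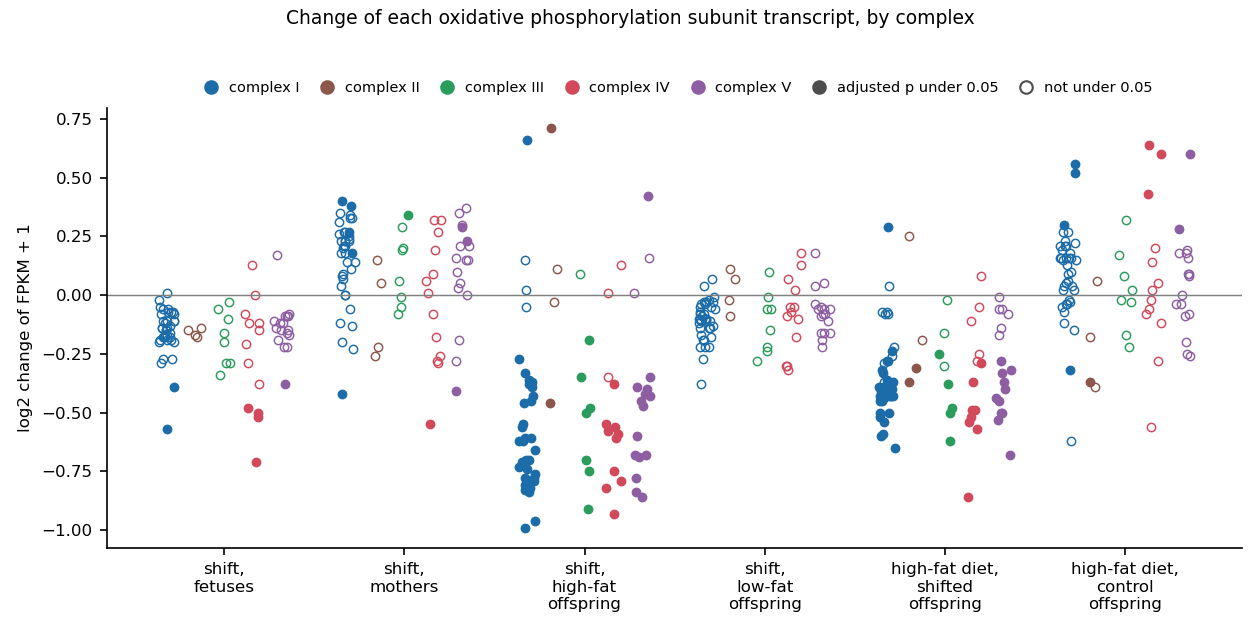
Log2 change of FPKM + 1 for each tested member, grouped by comparison and complex; filled points have an adjusted p under 0.05. In high-fat offspring 66 filled points lie below 0 and 3 above, in fetuses 7 lie below, and in low-fat offspring none is filled.

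Ndufa1 had a median of 178 FPKM and at most 275 FPKM in high-fat offspring of shifted mothers, against a median of 330.3 FPKM and at least 243 FPKM in those of control mothers. Ranges overlapped at their ends, and the log2 change was -0.78 ± 0.09 (SE, adjusted p = 3.8e-08). Ndufs7, a subunit next to the ubiquinone site, had 56.9, 72.0 and 98.7 FPKM in offspring of shifted mothers, against 103, 128 and 198 FPKM in those of control mothers (-0.82, adjusted p = 5.53e-08). Its groups did not overlap. The same held for Uqcrfs1, the Rieske iron-sulfur protein of complex III (112 to 162 FPKM in offspring of shifted mothers, against 164 to 238 FPKM in those of control mothers), and for Uqcrq, a small complex III subunit (470.0 to 979 FPKM in offspring of shifted mothers, against 987 to 3196 FPKM in those of control mothers). These were the 3 members without overlap in this direction, where 1.08% of all genes had none, and no member was higher without overlap (2.05% of all genes).

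The other members of smallest p were Ndufb4, Ndufa12, Ndufa13 and Ndufs8 of complex I and Atp5j and Atp5h of complex V, which join its stator stalk. Ndufb4 averaged 156 ± 30.1 FPKM in offspring of shifted mothers and 313 ± 106 FPKM in those of control mothers (-0.96), the largest fall among these 8. Atp5j averaged 314 ± 59.5 FPKM in offspring of shifted mothers and 576 ± 144 FPKM in those of control mothers (-0.86). Atp5h averaged 364 ± 71.1 FPKM in offspring of shifted mothers and 660 ± 155 FPKM in those of control mothers (-0.84). Ndufa12, Ndufa13 and Ndufs8 were at -0.84, -0.79 and -0.72. In each of these 6, all 12 libraries of the shifted arm lay below the control mean of their time, which was not counted over all genes.

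Sdha, Ndufs1 and Atp5b rose. Sdha had 129, 153 and 182 FPKM (lowest, median, highest) in high-fat offspring of shifted mothers, against 35.1, 107 and 132 FPKM in those of control mothers. Only the top of the control range reached the bottom of the shifted one, and the log2 change was 0.71 ± 0.14 (1.64-fold, adjusted p = 9.58e-05). Ndufs1, the largest complex I subunit and an iron-sulfur protein, had 32.6, 39.7 and 51.0 FPKM in offspring of shifted mothers, against 17.0, 25.9 and 39.2 FPKM in those of control mothers (0.66 ± 0.10, 1.58-fold, adjusted p = 2.28e-06). Atp5b averaged 506 ± 40.5 FPKM in offspring of shifted mothers and 398 ± 117 FPKM in those of control mothers (0.42, adjusted p = 0.01517). Each was higher in 12 of 12 libraries of the shifted arm, which was not counted over all genes. These 3 transcripts are among the long ones of the set, at 2900, 2590 and 1916 nt.

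Transcript length moved with the change. Members under 800 nt had a median change of -0.62 with 40 of 43 lower, and all genes of that length one of -0.38 with 52.7% lower. Between 800 and 1500 nt the members' median was -0.58 with 20 of 22 lower, and that of all genes -0.22 with 42.8% lower. Above 1500 nt it was -0.03 with 6 lower and 3 higher of 15 members, against 0.08 for all genes. Across genes the change correlated with length at 0.47, and across members at 0.38, as a description. The length trend of the libraries had a median of 0.375 (-0.20 to 0.53) in high-fat offspring of shifted mothers and -0.24 (-0.43 to 0.01) in those of control mothers. After both trends were removed from each library 48 members were lower and 5 higher, and the 8 lower members of smallest p and the 3 higher ones passed with their direction.

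**Figure D4:**
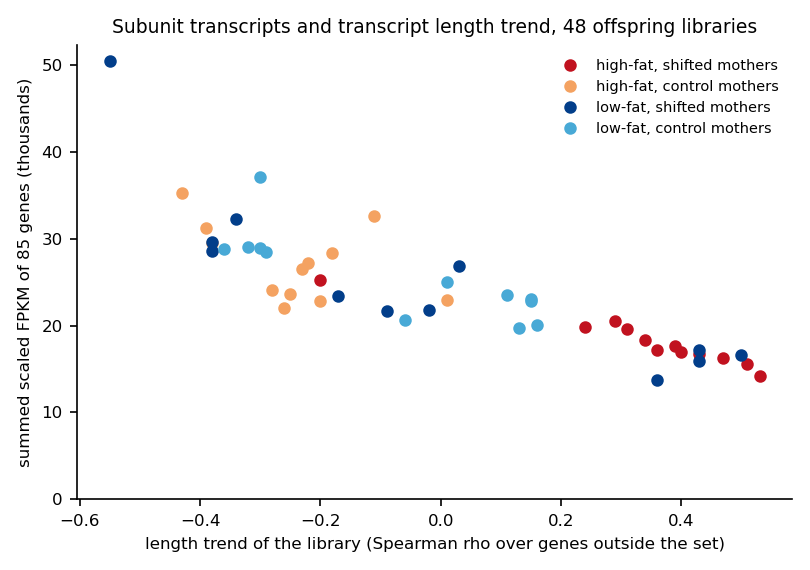
Summed scaled FPKM of the 85 members in each of the 48 offspring libraries against the length trend of the library, the Spearman correlation over genes outside the set between transcript length and level relative to the stage. Libraries of high-fat offspring of shifted mothers, 14181 to 25258 FPKM, lie at the right and those of high-fat offspring of control mothers, 22048 to 35300 FPKM, at the left; the low-fat arms spread over both.

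In the high-fat arms 11 of 12 shifted libraries had a length trend of 0.24 or above and no control library one above 0.01, so the arm and the trend of its libraries cannot be told apart there. The exception, at -0.20, was ZT18 replicate 2 of the shifted arm, which also had the highest sum of that arm, 25258 FPKM. In the values as deposited 10 members were higher and 46 lower, with the median of all genes at 0.21. Without the 5 libraries of low correlation 68 were lower and 3 higher. The fall was present at each time of day, with medians of -0.66 (ZT0), -0.46 (ZT6), -0.71 (ZT12) and -0.44 (ZT18). At ZT6, 69 of 80 members had all 3 shifted libraries below the 3 control ones, as had 21.6% of all genes.

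Genes around the chain did not all follow. Cytosolic ribosomal protein genes, which are short too, were lower for 69 of 81 with a median of -0.71, and mitochondrial ribosomal protein genes for 49 of 77 with 4 higher. Assembly factors had 16 lower and 5 higher of 49, Uqcc3 (-0.80), Sdhaf1 (-0.89) and Cox15 (0.41) among them. TCA cycle genes had 9 higher and 2 lower of 19, among them Pcx, pyruvate carboxylase (0.62, adjusted p = 1.44e-05), and Pdha1 (0.42). Of the electron carriers outside the set Cycs (-0.43), Cyc1 (-0.23) and Etfb (-0.70) were lower and Etfdh (0.81) was higher. Regulators of mitochondrial biogenesis had 5 higher, Gabpa among them (0.61), and 5 lower of 22, and carriers of ADP, phosphate and the outer membrane 1 higher and 2 lower of 10. Of the cell markers, hepatocyte genes had 2 higher and 3 lower of 8 and erythroid genes 2 higher of 3 tested, with summed erythroid medians of 63.1 FPKM in offspring of shifted mothers and 50.4 FPKM in those of control mothers. Their part in the result was not tested.

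On the low-fat diet none of 80 members passed with the shift, where 1 gene in all did (0.00922%). An unadjusted p under 0.05 was found for 11 members and for 806 of 10849 genes, and the members' median change was -0.09. Ndufb4 (222 ± 89.5 FPKM in offspring of shifted mothers and 276 ± 73.2 in those of control mothers) and Cox7b had an adjusted p of 0.4119, and Cox6c 0.4985. The summed members spread from 13698 to 50425 FPKM in offspring of shifted mothers and from 19736 to 37141 in those of control mothers. The medians had opposite signs at ZT6 and ZT18, though the difference between the daily profiles was not called for any member (limma F test, below). At ZT6 the median change was -0.65, 75 of 80 members were lower and 65 had all 3 shifted libraries below the 3 control ones, as had 17.6% of all genes. At ZT18 the median was 0.34 with 74 members higher, 1 of them without overlap (6.26% of all genes). Length trends at ZT6 were 0.36, 0.43 and 0.43 in shifted libraries and -0.30, 0.15 and 0.15 in control libraries. At ZT18 they were -0.34, 0.03 and -0.55 in shifted and -0.30, 0.11 and 0.01 in control libraries. Their part was not tested.

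The change with the shift differed between the diets for 52 of 80 members, where 24.2% of all genes passed (13.9% more positive and 10.3% more negative). It was more negative on the high-fat diet for 50 and more positive for 2, Ndufs1 (0.62, adjusted p = 0.0025) and Sdha (0.64, adjusted p = 0.01785). By length, it was more negative for 30 of 43 members under 800 nt, as for 32.6% of all genes of that length. The same held for 17 of 22 members of 800 to 1500 nt, as for 23.6% of all genes of that length. Across genes the difference correlated with length at 0.43 and with GC content at -0.42. The most negative differences by p were those of Ndufa13 (-0.75, adjusted p = 0.000563) and Ndufa12 (-0.74), followed by Atp5o, Atp5j, Ndufa1, Ndufa8, Atp5h and Ndufb10 (-0.59 to -0.70). Ndufa13 averaged 93.6 ± 19.2 and 164 ± 45.4 FPKM in high-fat offspring of shifted and of control mothers, and 155 ± 76.7 and 147 ± 34.8 FPKM in low-fat offspring of shifted and of control mothers. The high-fat shifted arm was the low one of the 4. The count fell to 27 in the values as deposited (2 more positive, 25 more negative) and to 27 after both library trends were removed (1 and 26), where Sdha was at an adjusted p of 0.0549 and Ndufb10 at 0.059.

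Set against the low-fat diet, the high-fat diet gave different pictures in offspring of shifted and of control mothers, by the test of the difference above. In offspring of shifted mothers 54 of 80 were lower and 1 higher, and 23.2% of all genes passed (11.7% lower), with a median of -0.37. By length, 36 of 43 members under 800 nt were lower, as were 35.8% of all genes of that length. Of 22 members of 800 to 1500 nt 15 were lower, as were 24.8% of all genes of that length. The length trend of the libraries had medians of 0.375 on the high-fat and -0.055 on the low-fat diet. Its part was not tested beyond the fit with both trends removed. Atp5g1, which encodes a subunit of the c-ring, averaged 189 ± 40.4 FPKM on the high-fat diet and 324 ± 142 FPKM on the low-fat diet (-0.68 ± 0.10, adjusted p = 1.5e-05). Ndufa8 (-0.65), Uqcr11 (-0.62), Ndufa12 (-0.60), Ndufa13 (-0.59), Cox7c (-0.57), Atp5o (-0.53) and Cox4i1 (-0.49) followed, all with overlapping ranges. Ndufs1 was higher (0.29, adjusted p = 0.03016), a call lost in 7 of 24 fits that left out 1 library. Medians by time were -0.39 (ZT0), 0.08 (ZT6), -0.44 (ZT12) and -0.74 (ZT18), and with both library trends removed 33 were lower and 1 higher. This comparison and that of the shift on the high-fat diet share the high-fat shifted arm. Erythroid markers were higher for 2 of 3 tested, with summed medians of 63.1 FPKM on the high-fat and 44.2 FPKM on the low-fat diet.

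In offspring of control mothers 8 of 80 members were higher and 2 lower on the high-fat diet, where 14.6% of all genes passed (6.73% higher and 7.84% lower). All ranges overlapped, as they did for all but 0.0184% (higher) and 0.0922% (lower) of genes. Atp5sl was highest by p, with 15.0, 20.6 and 53.7 FPKM (lowest, median, highest) on the high-fat diet, against 9.93, 15.0 and 17.3 FPKM on the low-fat diet (0.60 ± 0.10, adjusted p = 0.000347). Cox5b averaged 579 ± 137 FPKM on the high-fat and 387 ± 164 FPKM on the low-fat diet (0.64, adjusted p = 0.002868). Cox8a averaged 542 ± 68.9 FPKM on the high-fat and 373 ± 145 FPKM on the low-fat diet (0.60, adjusted p = 0.005947), and Ndufab1 112 ± 18.3 FPKM on the high-fat and 76.8 ± 18.8 FPKM on the low-fat diet (0.56, adjusted p = 0.002378). Ndufb2 (0.52), Cox6a1 (0.43), Ndufs3 (0.30) and Atp5d (0.28) passed as higher too. Ndufs1 (-0.32, adjusted p = 0.02693) and Sdhd, a membrane anchor of complex II (-0.37, adjusted p = 0.0371), were lower. Several of these calls were unstable: with 1 library left out Atp5d was lost in 18 of 24 fits, Sdhd in 13, and Ndufs3 and Ndufs1 in 6 each. Atp5d was also lost under 5 of 8 other alternatives (adjusted p up to 0.528 over them) and Sdhd under 3. By length, 3 of 43 members under 800 nt were higher, as were 10.4% of all genes of that length, and 4 of 22 members of 800 to 1500 nt, as were 11.4%.

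Of the 8 higher on the high-fat diet in offspring of control mothers, 6 were among the 7 lower in fetuses of shifted mothers, and the 2 comparisons share no library. Those 6 are Ndufab1, Cox8a, Cox6a1, Cox5b, Atp5d and Ndufb2. With both library trends removed Atp5d lost its call in both comparisons and Ndufb2 in fetuses, which leaves 4 shared. No test of that overlap was made, and the matching overlap over all genes was not counted. Over all genes the change correlated with GC content at -0.38 for the shift in fetuses and 0.38 for the diet. With transcript length it correlated at 0.31 and -0.18. The GC trend of the libraries had medians of 0.155 in high-fat and -0.095 in low-fat offspring of control mothers, and its part in these changes was not tested beyond that fit. In the values as deposited the diet comparison had 5 higher and 8 lower, where the median of all genes was -0.13, and with 1 library left out it had from 6 members (without high-fat offspring of control mothers at ZT18 replicate 3) to 23 (without ZT12 replicate 1 of that arm). TCA cycle genes were lower for 6 of 19, Dlat (-0.65) and Cs (-0.32) among them, and mitochondrial ribosomal protein genes higher for 13 of 77.

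Daily changes were called for many members in both arms of offspring of shifted mothers, and which of these arms had more depended on the libraries used. In low-fat offspring of shifted mothers 56 of 80 members changed with time, where 23.2% of all genes did, and 54 of the 56 peaked at ZT18 and 53 had their trough at ZT6. Of the 2366 genes called in this arm, 943 (39.9%) peaked at ZT18 and 1035 had their trough at ZT6. The median fold of the 56 members between peak and trough was 2.47. They were 31 of 38 members in complex I, 1 of 4 in complex II, 5 of 8 in complex III, 8 of 13 in complex IV and 11 of 17 in complex V. Atp5s and Cox6b2 were the exceptions, with a peak at ZT6 and a trough at ZT0, and Uqcrb had its trough at ZT0. Cox6b2 averaged under 1 FPKM in this arm, and it was too low to be tested for time in the other offspring arms.

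Uqcr11, a small complex III subunit, averaged 674 ± 142 FPKM (ZT0), 377 ± 82.7 (ZT6), 837 ± 164 (ZT12) and 1302 ± 399 (ZT18) (SD, n = 3 each, 3.39-fold, adjusted p = 0.007665). Ndufa5, an accessory subunit of the arm of complex I in the matrix, had 81.3, 158 and 97.3 FPKM (ZT0), 86.6, 100.2 and 95.8 (ZT6), 211, 228 and 176 (ZT12), and 297, 257 and 448 (ZT18) (3.42-fold, adjusted p = 0.004116). Every ZT18 library of Ndufa5 lay above every library of the other times, a separation that was not counted over all genes. Ndufa13 (3.09-fold), Ndufa8 (3.08-fold), Ndufb7 (3.05-fold) and Ndufb3 (2.54-fold) had the same peak and trough.

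The ZT18 peak rests in part on few libraries. The members summed to 32298, 26842 and 50425 FPKM at ZT18 and to 13698, 15864 and 17120 FPKM at ZT6, and the length trends of these libraries were -0.34, 0.03 and -0.55 at ZT18 and 0.36, 0.43 and 0.43 at ZT6. The number of members called was 14 without the 5 libraries of low correlation, 30 with both trends removed, and from 26 (without low-fat offspring of shifted mothers at ZT6 replicate 2) to 67 (without ZT18 replicate 2 of that arm) with 1 library left out. In high-fat offspring of shifted mothers 48 were called without the 5 libraries of low correlation, so the order of the 2 arms turned there. Cytosolic ribosomal protein genes changed with time for 55 of 81 and TCA cycle genes for 3 of 19.

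**Figure D5:**
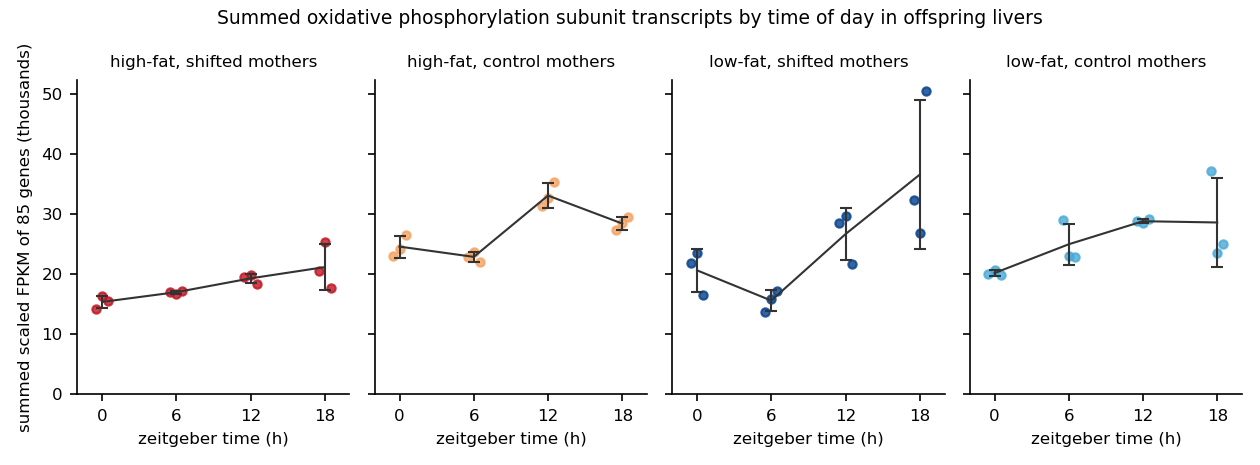
Summed scaled FPKM of the 85 members by zeitgeber time in the 4 offspring arms; points are libraries and bars mean ± SD of 3. Low-fat offspring of shifted mothers have their lowest mean, 15560 FPKM, at ZT6 and their highest, 36520, at ZT18, while low-fat offspring of control mothers run between 20140 at ZT0 and 28770 at ZT12.

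In high-fat offspring of shifted mothers 41 of 79 members changed with time, where 30.3% of all genes did, with smaller folds (median 1.39). Of the 41, 32 peaked at ZT18 and 37 had their trough at ZT0. Of the 3038 genes called in this arm, 651 (21.4%) peaked at ZT18 and 1035 had their trough at ZT0. Ndufa8 had 66.8, 70.2 and 71.6 FPKM (ZT0), 79.8, 81.1 and 84.4 (ZT6), 96.5, 113 and 94.0 (ZT12), and 98.0, 129.9 and 103 (ZT18) (1.57-fold, adjusted p = 0.006297). Its libraries of ZT0 and ZT6 lay below all those of ZT12 and ZT18, which was not counted over all genes either. Uqcrc1, a core protein of complex III (1.35-fold), Cox6a1 (1.5-fold) and Ndufb7 (1.61-fold) also peaked at ZT18, Ndufv1 at ZT12 (1.30-fold) and Atp5s at ZT6 (1.39-fold). Ndufs1 and Sdha, which rose with the shift, peaked at ZT12 with 47.8 ± 2.91 and 176 ± 7.91 FPKM and had their trough at ZT18 with 35.7 ± 4.02 and 138 ± 15.7 FPKM. The count was between 4 (without ZT0 replicate 1 of this arm) and 74 (without ZT18 replicate 3) with 1 library left out, and Cox6a1, Ndufb7 and Ndufv1 were lost without ZT0 replicate 1.

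In offspring of control mothers on the low-fat diet 7 of 79 members changed, where 14.2% of all genes did, and all 7 peaked at ZT12 and had their trough at ZT0. Of the 1434 genes called in this arm, 374 (26.1%) peaked at ZT12 and 300 had their trough at ZT0. The 7 members are Sdhb, Uqcrc1, Ndufb9, Ndufb8, Atp5k, Atp5c1 and Uqcrh. Sdhb had 172, 172 and 166 FPKM (ZT0), 253, 211 and 214 (ZT6), 289, 287 and 295 (ZT12), and 302, 241 and 267 (ZT18) (1.70-fold, adjusted p = 0.0119). The count was between 2 (without ZT6 replicate 2 of this arm) and 18 (without ZT18 replicate 1) with 1 library left out. Sdhb and Uqcrc1 passed in all 12 of these fits, while Atp5k and Uqcrh were lost in 9 and Ndufb8 in 8. On the high-fat diet no member passed of 79 (0.753% of all genes), and the smallest adjusted p was 0.06598, for Uqcr11. An unadjusted p under 0.05 was found for 36 members and for 1332 of 10089 genes. Without the 5 libraries of low correlation 6 members passed.

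In control mothers Atp5sl alone of 79 members changed with time, where 4.28% of all genes did. It averaged 8.93 ± 2.07 FPKM (ZT0), 12.2 ± 0.323 (ZT6), 13.2 ± 1.19 (ZT12) and 8.53 ± 0.699 (ZT18) (adjusted p = 0.04811), and the call was lost in 11 of 12 fits that left out 1 library (adjusted p up to 0.135) and under 6 of 7 other alternatives. In shifted mothers (0.717% of all genes), fetuses of shifted mothers and fetuses of control mothers (0% each) no member passed, with the smallest adjusted p at 0.8658 for Ndufs4, 0.8062 for Cox5b and 0.7637 for Ndufa4l2.

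That daily profiles differ between arms was not shown by the direct test for any member. The interaction of time with the shift had its smallest adjusted p at 0.05634 in low-fat offspring, for Uqcr11, with 0.0461% of all genes called. An unadjusted p under 0.05 was found there for 55 members and for 1732 of 10849 genes. With 1 library left out the count there ran from 0 to 42, 42 without low-fat offspring of control mothers at ZT18 replicate 1. In high-fat offspring the smallest was 0.5541 (0% of all genes) and in fetuses 0.9247 (0%). The interaction of time with diet reached 0.08014 for Uqcr11 in offspring of shifted mothers (0.157% of all genes) and 0.198 for Ndufb3 in those of control mothers (0.0277%).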

How the data were processed

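The authors deposited FPKM values of poly(A) liver RNA, 1 table per arm, made with TopHat2 2.1.1 and Cufflinks 2.2.1 on mm10, per the submitters' processing notes. The annotation, the treatment of multiply mapped reads and the depth are not given in the labels, so values carry no counting error, and short transcripts and pseudogene copies can affect them. Here each library's FPKM were divided by a median-of-ratios factor, computed within a stage (fetuses and mothers together where tested against each other). They were analysed as log2(FPKM + 1) with limma 3.58.1 in R 4.3.3, over all genes with at least 1 FPKM in 3 libraries of the fit. P-values were Benjamini-Hochberg adjusted, with calls at 0.05. A level is an arm mean over 4 times. Time of day was tested in each arm alone (limma F, 3 degrees of freedom). Fold changes on this scale understate those of low genes. Only some of the offspring fits, of shift, time and time by shift, were tested on simulated data. The other fits were not tested in this way.

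Members and lists were chosen with earlier results of these data known. Named were up to 8 called members of smallest p per direction (3 where none was called, 6 for time), isoform families, the highest and lowest of a complex, and up to 3 genes of each further list; members named for other reasons, such as a lack of overlap, were chosen after their values were seen. The result of 1 member that the rule names is not reported here. Alternatives were a pseudocount of 0.1, no filter, values as deposited, upper quartile scaling, only the compared arms, a replicate block, 24 h cosine terms, removal of GC and length trends (splines with 4 degrees of freedom), each library left out, and, chosen after seeing the data, 5 offspring libraries with a correlation under 0.95 left out. Transcript lengths come from GENCODE and promoters from RefSeq GRCm38.p6.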

Additional observations from a re-analysis of the deposited data

Results flagged for a closer look

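The change with the maternal shift differed between high-fat and low-fat offspring for 52 members, by the interaction of shift and diet in limma. The log2 change on the high-fat diet minus that on the low-fat diet was -0.75 for Ndufa13, -0.74 for Ndufa12, -0.62 for Atp5o, -0.69 for Atp5j, -0.59 for Ndufa1, -0.70 for Ndufa8, -0.68 for Atp5h and -0.69 for Ndufb10. It was 0.62 for Ndufs1 and 0.64 for Sdha, which were the only members called in this direction, of 80. The length trend of the libraries also differed between these arms. Its medians were 0.375 and -0.24 in high-fat offspring of shifted and control mothers. In low-fat offspring of shifted and control mothers they were -0.055 and -0.025. The GC trend had medians of -0.18 and 0.155 in the high-fat arms and 0.02 and -0.095 in the low-fat arms, in the same order. The part of both trends was not tested beyond the fit with them removed, which called 27 members.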

How the results depend on the processing

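Of the settings tried, removal of GC and length trends gave 4 members for the shift in fetuses, 34 for the high-fat diet in offspring of shifted mothers, 27 for shift by diet, and, for time, 30 in low-fat and 18 in high-fat offspring of shifted mothers and 0 in control mothers, and it turned Atp5g2 to -0.20 and Uqcr10 to -0.18 in fetuses against mothers of the control arms; the cause was not tested. Values as deposited gave 3 for the shift in mothers, 27 for shift by diet, and, for time, 26 and 15 in low-fat and high-fat offspring of shifted mothers, 1 in low-fat offspring of control mothers and 0 in control mothers. Without the filter there were 6 for the shift in mothers, and, for time, 35 in low-fat and 23 in high-fat offspring of shifted mothers, 0 in control mothers, and 2 for time by shift in low-fat offspring. A pseudocount of 0.1 and upper quartile scaling each gave 1 for the shift in fetuses minus mothers and 0 for time in control mothers, and upper quartile scaling 12 for time in low-fat offspring of control mothers. Cosine terms gave 2 in control mothers, 24 in low-fat offspring of control mothers and 1 for time by shift in low-fat offspring. Without the 5 libraries of low correlation 14 members changed with time in low-fat offspring of shifted mothers and 6 in high-fat offspring of control mothers. The labels do not say whether replicate numbers pair the libraries. Same-numbered libraries correlated above 0.1 in at most 3 of 12 pairs of any 2 arms compared, fetuses and mothers included. Between the fetal arms these correlations ran from -0.67 to 0.79. Such correlations cannot decide whether libraries are paired, since paired livers of different arms need not correlate. The replicate block gave 1 member for the shift in fetuses minus mothers, 8 for that in fetuses and 69 for that in high-fat offspring. For time it gave 0 in control mothers and 33 in low-fat offspring of shifted mothers. With 1 library left out the counts ran from 4 to 10 (shift in fetuses), 2 to 24 (mothers), 67 to 69 (high-fat offspring), 6 to 23 and 48 to 59 (high-fat diet in offspring of control and of shifted mothers), 46 to 58 (shift by diet), 66 to 70 and 49 to 53 (fetuses against mothers, shifted and control) and 0 to 6 (shift in fetuses minus mothers). For time they ran from 26 to 67 and 2 to 18 (low-fat offspring of shifted and of control mothers), 4 to 74 and 0 to 5 (high-fat offspring of shifted and of control mothers) and 0 to 2 (control mothers), and for differences of profile from 0 to 42 (shift, low-fat offspring), 0 to 1 (shift, mothers), 0 to 4 and 0 to 18 (diet, offspring of control and of shifted mothers). The shift in low-fat offspring gave 0 members under every setting tried.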
